A study of Danio rerio with 39 samples.

Results

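The genes described here encode the proteasome, and they were followed in whole zebrafish embryos over 5 days after a short exposure to TCDD (dioxin). Members were the probes whose gene name on the array began with psma to psmg and a number, or whose description held the word proteasome. This rule took 50 probes, which stood for 32 genes, out of 21495 probes under 18561 distinct names. By current gene names, 16 of the 32 encode core subunits, 10 regulatory subunits, 3 proteasome activators and 2 assembly factors, and psmc3ip-like is named for a protein that binds a subunit and is itself no subunit. A further set, counted as 24 proteasome genes, stood on the arrays under clone or older names that the rule did not reach. It is given apart from the members, though it includes a probe that RefSeq assigns to psme3, which is also a member.

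The 39 arrays came from embryos of the AB* line in 10 groups: TCDD at 1 ng/mL or its vehicle DMSO, each sampled on days 1, 2, 3, 4 and 5. Both groups were dosed for 1 h between 4 and 5 h post-fertilization and rinsed, and each RNA sample was a pool of whole embryos. Each of 4 independent experiments gave 1 array a group, except that experiment 1 gave none for TCDD on day 2, so 19 arrays were TCDD and 20 were DMSO. Embryo RNA was labeled with Cy5 and hybridized against a common reference, RNA of a zebrafish embryonic fibroblast line (Zf4), labeled with Cy3. All levels below are log2 of the embryo signal over that reference, so that 0 means a signal equal to the fibroblasts' and a negative value a lower one; they rank 1 gene across samples and not genes against each other. In whole embryos, fewer cells of a type and less RNA per cell cannot be told apart.

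The proteasome is the protease that degrades ubiquitin-tagged proteins in the cytosol and nucleus. Its core particle is a barrel of stacked rings of alpha and beta subunits, and the beta subunits psmb5, psmb6 and psmb7 carry the active sites. The regulatory particle caps the barrel: its psmc subunits are ATPases that unfold the substrate, and its psmd subunits recognize and trim the ubiquitin chain. In immune cells or under interferon, inducible beta subunits (psmb8, psmb9 and psmb10) replace the standard ones, and the activators psme1 and psme2 can replace the regulatory cap, which favors the cutting of peptides for antigen presentation.

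The embryo channel was well above background for 16329 to 18624 probes an array, 29 to 93 spots an array were saturated, and the median log2 ratio of an array lay between -0.19 and -0.069. Of the 32 genes, 27 were above background on all 39 arrays and none was saturated; over all probes the share above background on every array was 65.9%. The other 5 were psma3-like (19 arrays), psmb8 (8 arrays), psmb9a (1 array), psmb1-like (38 arrays) and psmd10-like (0 arrays). The dioxin marker cyp1a was 19.9, 80.3, 97.7, 79.1 and 52.6 times as high in TCDD as in DMSO embryos on days 1 to 5, and its groups did not overlap on any day.

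More of these genes were called for the day of development than for TCDD, in tests of unlike kind. The main effect of day was tested over all days with both treatments averaged, and TCDD within each single day. The main effect of day passed an adjusted p of 0.05 (limma, Benjamini-Hochberg over all probes) for 23 of the 32 genes, beside 57.9% of all probes. Between day 1 and day 5, 20 genes fell and 4 rose in DMSO embryos, 62.5% and 12.5% of the members. Of all probes 25.5% fell and 21.3% rose. Of the 14163 probes above background on all arrays, 4877 fell and 3662 rose. In TCDD embryos 18 genes fell and 2 rose over the same span (56.2% and 6.25% of the members), beside 24.1% and 20.5% of all probes.

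By class, the fall was counted mainly in regulatory and constitutive core genes. Of the 10 regulatory genes, 9 fell between day 1 and day 5 in DMSO embryos, with a median log2 change of -0.72, against -0.04 over all probes. Of the 11 constitutive core genes, 9 fell and 1 rose (median -0.62). None of the 5 inducible beta genes was called (limma; 1 was higher and 0 lower at an unadjusted p of 0.05), and their median was 0.04. The activators split: psme1 and psme2 rose and psme3 fell. In TCDD embryos the medians were -0.45 for the regulatory and -0.45 for the constitutive core genes, against -0.05 over all probes.

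**Figure D1:**
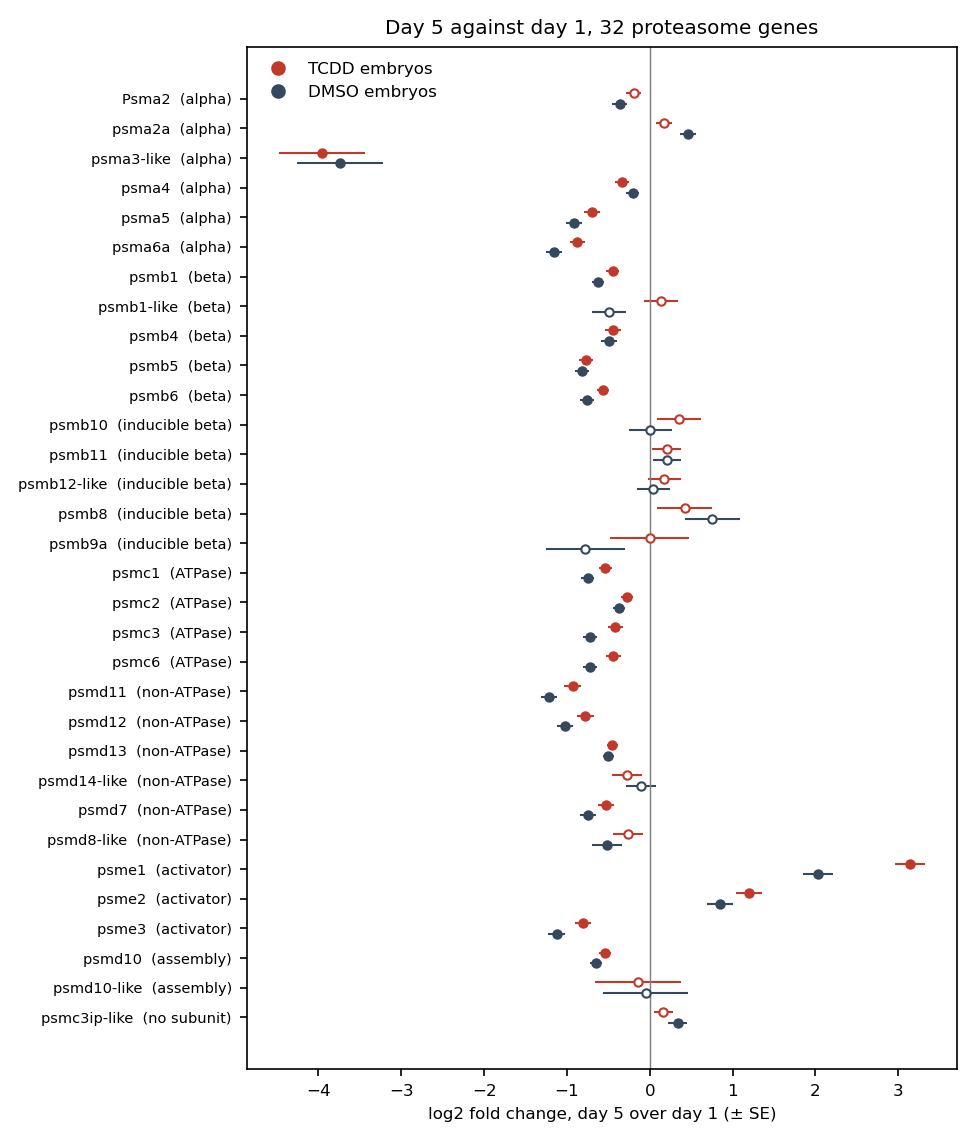
Log2 change between day 1 and day 5 (x axis, ± SE) for each of the 32 genes, grouped by class, in TCDD embryos (red, upper marker) and DMSO embryos (dark, lower marker). Filled markers passed an adjusted p of 0.05. Most core and regulatory genes lie left of 0 in both treatments, and psme1 lies farthest to the right, at 3.14 in TCDD and 2.03 in DMSO embryos.

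The fall was counted step by step, and its timing was not tested between the classes. Between day 1 and day 2, 7 of the 32 genes fell in DMSO embryos (15.5% of all probes did), and none of the 10 regulatory genes was among them (limma; 1 at an unadjusted p of 0.05). Of the 11 constitutive core genes, 6 fell and 1 rose in this first step, with a median of -0.22. These 11 include the dim psma3-like and psmb1-like. For the 9 core genes above background on all arrays, the DMSO mean on day 2 was -0.057 ± 0.052 relative to day 1. For the 10 regulatory genes it was -0.075 ± 0.098 (SD, n = 4 each). Between day 2 and day 3 no member fell by the limma test (6.5% of all probes did, and 0 members at an unadjusted p of 0.05), and 2 rose. Between day 3 and day 4, 14 members fell, beside 6.96% of all probes. Between day 4 and day 5, 14 members fell, beside 3.01% of all probes. In each of the last 2 steps 7 of the 10 regulatory genes fell, with medians of -0.34 and -0.41. Of the constitutive core 6 and 5 of 11 genes fell in these steps, with medians of -0.29 and -0.30.

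Psmd11, a non-ATPase subunit of the regulatory lid, had the largest called fall among members that were measured above background throughout. Its level on day 5 was -0.77, -1.05, -0.81 and -0.64 in TCDD embryos of experiments 1 to 4 and -1.06, -0.93, -0.95 and -1.14 in DMSO embryos. On day 1 it was 0.26, 0.02, 0.18 and 0.01 in TCDD embryos and 0.16, 0.09, 0.44 and 0.11 in DMSO embryos. Every day 5 array was thus below every day 1 array of its treatment. The same held for 4386 of the 21495 probes in TCDD embryos and for 5052 in DMSO embryos. The log2 change of psmd11 was -0.93 ± 0.10 in TCDD embryos (SE, adjusted p = 1.03e-09, limma) and -1.22 ± 0.10 in DMSO embryos (2.33-fold lower, adjusted p = 2.34e-12). Its lid partner psmd12 changed by -0.78 in TCDD and by -1.02 in DMSO embryos.

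The alpha subunit psma6a lay close to psmd11. On day 5 it stood at -0.74, -0.98, -0.58 and -0.57 in TCDD embryos and at -1.03, -0.91, -0.82 and -1.09 in DMSO embryos, against a mean of 0.16 ± 0.11 in TCDD and 0.20 ± 0.18 in DMSO embryos on day 1 (SD, n = 4 each). It changed by -0.88 in TCDD and by -1.16 in DMSO embryos. The catalytic subunit psmb5, which carries the chymotrypsin-like site, changed by -0.77 and the caspase-like psmb6 by -0.56 in TCDD embryos. In DMSO embryos psmb5 changed by -0.82 and psmb6 by -0.76, where psmb6 had 3 arrays on day 1 since 1 spot was an outlier. Psma5, another alpha subunit, changed by -0.70 in TCDD and by -0.91 in DMSO embryos. The smallest called fall in DMSO embryos was that of psma4, at -0.21 (adjusted p = 0.040).

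Psma3-like had the largest fitted change of all members, but its probe was dim. In embryos it was above background on every array of days 1 and 2 and on no array of days 4 and 5, in both treatments. On day 1 it stood at 3.33, 3.16, 4.13 and 2.74 in TCDD embryos and at 2.84, 6.29, 3.93 and 2.12 in DMSO embryos. On day 5 it stood at 0, -1.18, -0.73 and -0.58 in TCDD embryos, and 3 of the 4 DMSO ratios were stored as exactly 0. Since the day 5 signal had only an upper bound, the change is given as a bound from the embryo channel. Day 1 was at least 8.94-fold higher than day 5 in TCDD embryos and at least 11.8-fold higher in DMSO embryos. This bound sets the day 1 mean against the higher of the dim signal and the lowest signal called above background on each array. The bound itself was not tested. The limma fit of the stored ratios, those of 0 among them, gave adjusted p = 1.02e-07 in TCDD and 2.77e-07 in DMSO embryos. The fitted log2 change in DMSO embryos, -3.74, ranged from -5.04 with the arrays of 1 scan batch to -1.18 with another background correction and normalization (normexp and loess).

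**Figure D2:**
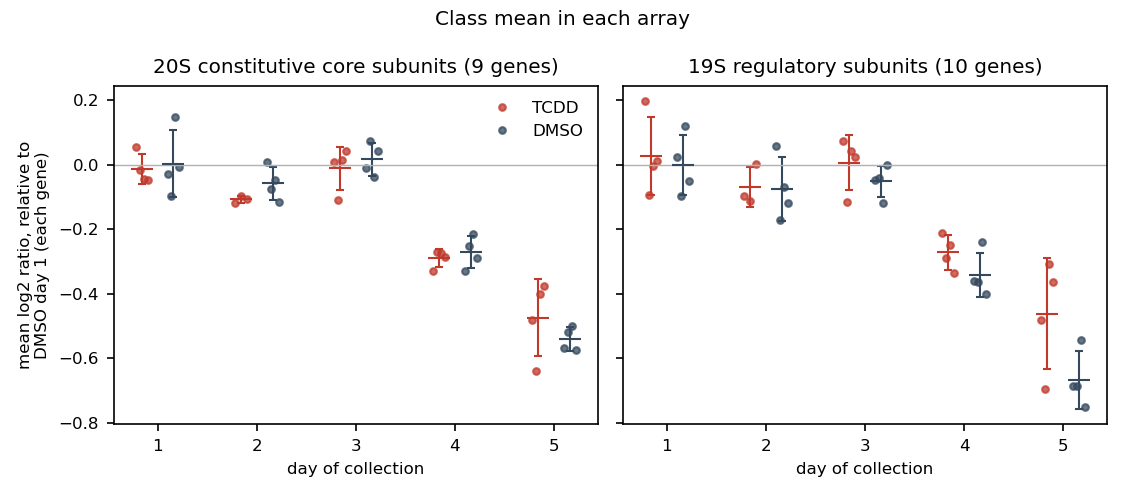
Mean log2 level of the 9 constitutive core genes and the 10 regulatory genes above background on all arrays, by day, each gene relative to its own mean in DMSO embryos on day 1. Points are arrays and bars the mean ± SD of TCDD (red, left) and DMSO (dark, right). Both classes stay within 0.2 of their starting level to day 3 and fall on days 4 and 5.

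The array means show the spread for the genes of both classes that were above background throughout. For the regulatory genes, the mean on day 3 was 0.01 ± 0.09 in TCDD and -0.05 ± 0.05 in DMSO embryos (SD, n = 4 each). On day 4 it was -0.27 ± 0.05 in TCDD and -0.34 ± 0.07 in DMSO embryos. On day 5 the 4 TCDD arrays stood at -0.48, -0.70, -0.31 and -0.36 and the 4 DMSO arrays at -0.69, -0.69, -0.54 and -0.75. Experiments 1, 3 and 4 each had a higher TCDD array, and experiment 2 had nearly equal ones, so the groups overlapped. The constitutive core stood at -0.48, -0.64, -0.40 and -0.38 in TCDD embryos on day 5 and at -0.57, -0.52, -0.50 and -0.57 in DMSO embryos. These groups overlapped as well.

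Proliferation markers fell as well. All 6 of 6 measured genes of that list were lower on day 5 than on day 1 in DMSO embryos (median -1.66). The list holds genes such as pcna and mcm3, which act in DNA replication. Over all probes 25.5% were called lower. On day 1 the mean log2 ratio over the list ranged from 0.90 to 1.01 in TCDD and from 0.88 to 1.00 in DMSO embryos. On day 3 it ranged from -0.46 to -0.30 in TCDD and from -0.44 to -0.28 in DMSO embryos, when the class means of the proteasome genes were still near their day 1 level. On day 5 it ranged from -1.45 to -0.90 in TCDD and from -0.94 to -0.74 in DMSO embryos. Its part in the fall of the proteasome genes was not tested.

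Not every core gene fell. Psma2a is 1 of a pair of zebrafish genes for the same alpha subunit, and the other copy stood on the array under the name Psma2 (psma2b in RefSeq). In DMSO embryos psma2a rose by 0.47 ± 0.10 between day 1 and day 5 (SE, adjusted p = 1.47e-04), a 1.38-fold increase, while Psma2 fell by 0.36 ± 0.09 (adjusted p = 0.00145). Most of the rise of psma2a fell between days 1 and 2 (0.37, adjusted p = 0.00327), with little further change after that. In TCDD embryos neither copy passed the test: psma2a changed by 0.18 (adjusted p = 0.15) and Psma2 by -0.19 (adjusted p = 0.091). Psmc3ip-like, the member that is no subunit, was 0.34 higher on day 5 than on day 1 in DMSO embryos (adjusted p = 0.016).

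Few members were called for TCDD. The number that passed an adjusted p of 0.05 against DMSO was 0, 1, 1, 0 and 5 of 32 on days 1, 2, 3, 4 and 5. Over all probes the shares were 0.014%, 0.703%, 2.75%, 0.893% and 6.27%, so the count on day 5 was the only one of more than 1 gene. At an unadjusted p of 0.05 (limma), 1, 3, 3, 1 and 13 members were higher on days 1 to 5. Those lower numbered 2, 2, 2, 1 and 1. The share of all probes at this threshold is not given, so these counts have no background beside them. At an unadjusted p of 0.01 (limma), 6 members were higher and 1 lower on day 5, beside 1077 and 910 of all probes. By the adjusted p, 4 members were higher and 1 lower on day 5 (12.5% and 3.12%), beside 3.64% and 2.63% of all probes. Their names were psme1, psmc2, psmc6 and psmb1 (higher) and psma2a (lower). Of the 14163 probes above background on all arrays, 739 were higher and 519 lower. With the experiment as a block the fit called 0, 2, 2, 0 and 9 members on days 1 to 5, and 8.67% of all probes on day 5. The 4 members that it added on day 5 were psme2, psmd12, psmc3 and psmd7. In the embryo channel alone, in either scan batch alone and with each day fitted alone, no member was called on day 5. Over all probes the embryo channel called 5.23%, batch 2 called 0.917%, batch 3 called 0% and each day alone 0.00931%. The batches and the single days thus called too few probes for the lack of a member to tell much.

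By class the differences between TCDD and DMSO embryos were small. The median log2 fold change of TCDD over DMSO for the 10 regulatory genes was 0.02, 0.01, 0.04, 0.08 and 0.23 on days 1 to 5. For the 16 core genes it was -0.02, -0.04, 0.06, 0.08 and 0.13. Over all probes it was 0.00, 0.01, 0.03, 0.02 and -0.001. On day 5, 9 of the 10 regulatory genes had a positive log2 fold change, and the ATPases psmc1, psmc2, psmc3 and psmc6 lay between 0.21 and 0.29. Among the core genes 10 of 16 were positive, and among all probes 49.2%. Psmd14-like, at -0.11, was the negative regulatory gene. The classes were not tested against each other.

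**Figure D3:**
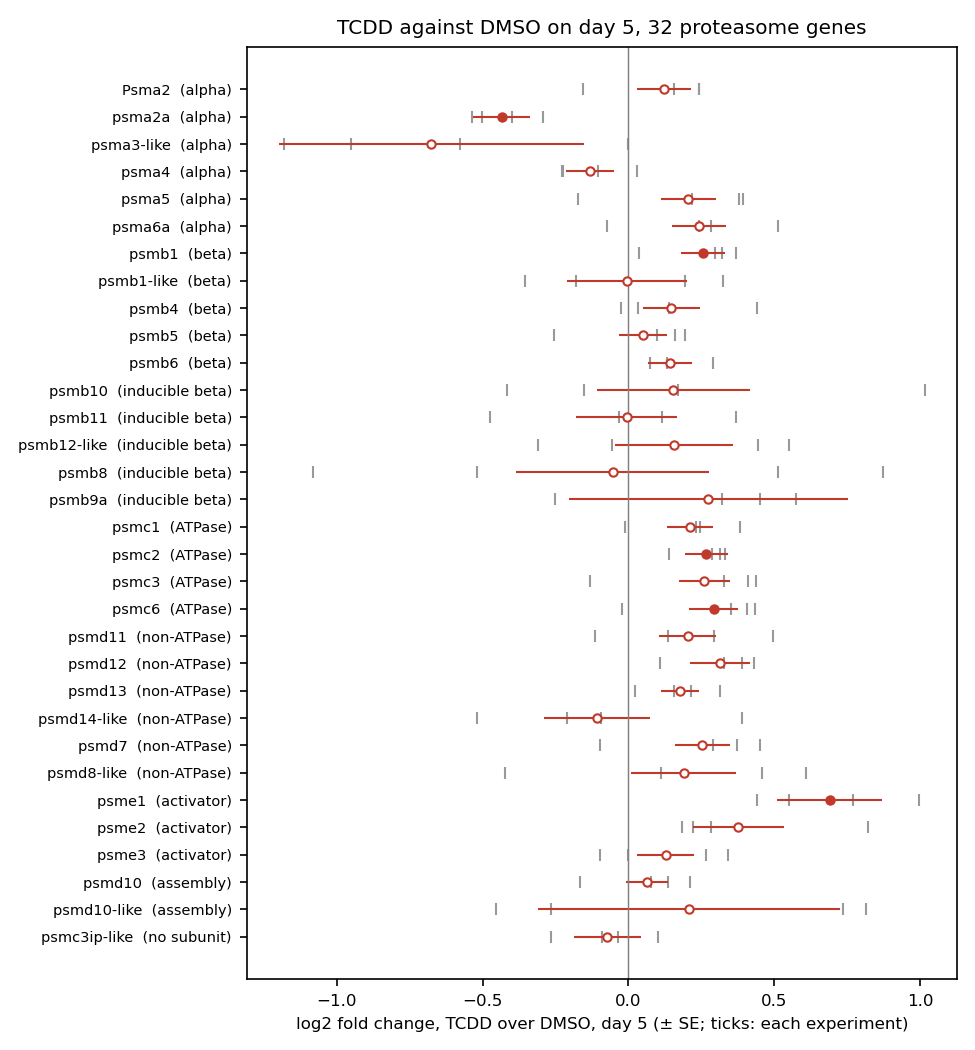
Log2 fold change of TCDD over DMSO on day 5 (x axis, ± SE) for each of the 32 genes by class; grey ticks are the differences of the single experiments and filled markers passed an adjusted p of 0.05. Psme1 (0.69), psmc6 (0.29), psmc2 (0.27) and psmb1 (0.26) are filled to the right of 0 and psma2a (-0.43) to the left.

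Psme1 encodes the alpha subunit of the interferon-inducible activator. On day 5 its level was -2.45, -2.75, -2.32 and -1.89 in TCDD embryos and -3.00, -3.19, -3.09 and -2.89 in DMSO embryos. All TCDD arrays were above all DMSO arrays, as for 5.53% of all probes on that day. The log2 fold change was 0.69 ± 0.18 (SE, adjusted p = 0.016, limma), a 1.61-fold difference seen in 4 of 4 experiments. On day 1 the order was turned: the level was -5.80, -5.41, -5.46 and -5.29 in TCDD embryos and -5.04, -5.10, -5.06 and -5.08 in DMSO embryos. There every TCDD array was below every DMSO array, but the difference of -0.42 ± 0.18 did not pass the test (adjusted p = 1, limma). On day 1, every TCDD array was below every DMSO array for 193 of the 21495 probes. On days 2, 3 and 4 the log2 fold change of psme1 was -0.02, 0.30 and 0.19, none of it called. On day 3 all TCDD arrays were above the DMSO arrays, as for 6.75% of all probes.

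The test of the difference between the day 5 and the day 1 effect gave 1.11 ± 0.26 for psme1 (SE, adjusted p = 0.038), beside 0.521% of all probes called, and it called no other member. This call was lost in the embryo channel alone, in each scan batch alone and without experiment 1, 3 or 4, where the value lay between 0.85 and 1.09. A joint test over all days called none of the 32 genes, beside 0.0931% of all probes (limma F; psme1 and psmb1-like passed an unadjusted p of 0.05, which makes 2). With the experiment as a block it called 1.

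Over development psme1 rose steeply in both treatments. The log2 change between day 1 and day 5 was 3.14 ± 0.18 in TCDD embryos (8.81-fold, adjusted p = 7.85e-16) and 2.03 ± 0.18 in DMSO embryos (4.08-fold, adjusted p = 2.65e-11). The largest single step in DMSO embryos was between days 3 and 4, at 1.42, after 0.59 between days 2 and 3. It was the only member that rose between days 3 and 4 while 14 others fell.

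Psme2, the beta subunit of the same activator, moved the same way by less. On day 5 it stood at -1.35, -1.47, -1.13 and -0.98 in TCDD embryos and at -1.57, -1.66, -1.41 and -1.80 in DMSO embryos. The TCDD array was the higher one in 4 of 4 experiments, but the groups overlapped and the log2 fold change of 0.38 ± 0.16 was not called (adjusted p = 0.17), unlike in the blocked fit. Between day 1 and day 5 psme2 rose by 1.20 in TCDD and by 0.85 in DMSO embryos (adjusted p = 7.66e-08 and 2.43e-05). Psme3, the nuclear activator that is not interferon-inducible, fell by 0.81 in TCDD embryos and by 1.13 in DMSO embryos (adjusted p = 2.42e-08 and 1.87e-11), and in DMSO embryos most of this fall lay between days 1 and 2 (-0.70). With TCDD it differed from DMSO by at most 0.19 in either direction on any day, and none of these differences was called. A dim second probe of psme2 changed by 0.09 between day 1 and day 5 in DMSO embryos and differed by 0.52 with TCDD on day 5, neither of them called. Another dim probe, which RefSeq assigns to psme3 and which was not under the psme3 name, changed by 0.16 over development in DMSO embryos without being called.

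**Figure D4:**
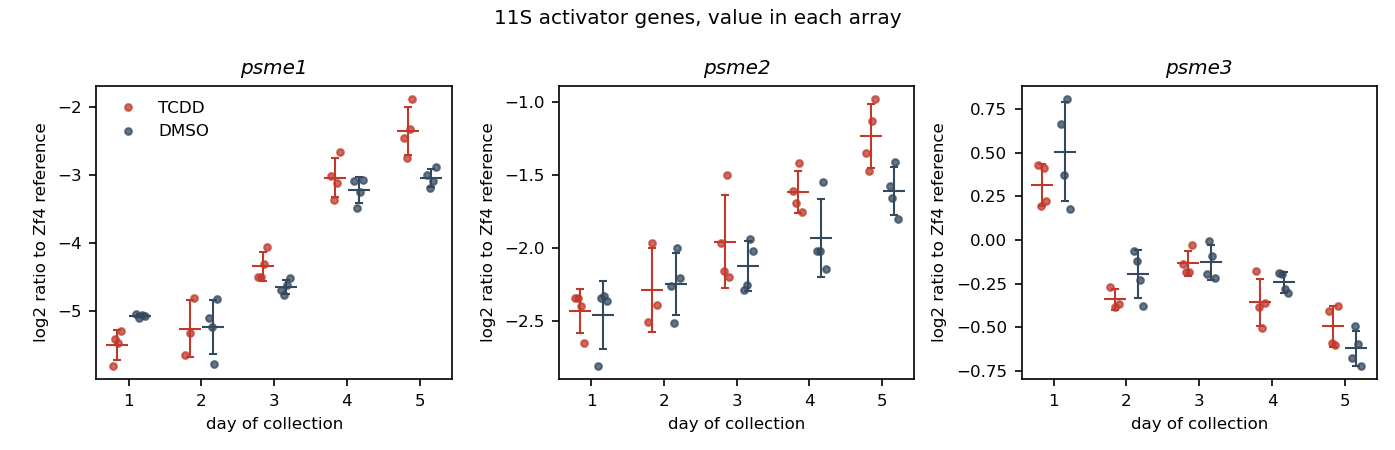
Log2 level against the Zf4 reference of psme1, psme2 and psme3 by day; points are arrays and bars the mean ± SD of TCDD (red, left) and DMSO (dark, right). Psme1 and psme2 climb and psme3 declines; for psme1 the TCDD arrays lie below the DMSO arrays on day 1 (means -5.49 and -5.07) and above them on day 5 (means -2.35 and -3.04).

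Psma2a was the member that TCDD lowered. On day 5 its level was -0.41, -0.50, -0.40 and -0.38 in TCDD embryos and 0.12, -0.10, 0.10 and -0.09 in DMSO embryos. The groups did not overlap, and the log2 fold change was -0.43 ± 0.10 (SE, adjusted p = 0.0044), or 1.35-fold lower. On day 3 it was -0.35, -0.44, -0.26 and -0.30 in TCDD embryos and 0.04, 0.18, -0.12 and -0.004 in DMSO embryos, also without overlap (-0.36 ± 0.10, adjusted p = 0.037). On days 1, 2 and 4 the log2 fold change was -0.15, -0.38 and -0.19 (adjusted p = 1, 0.094 and 0.61). From day 2 on, the TCDD array was the lower one in every experiment. Its second copy, Psma2, showed 0.12 on day 5 (adjusted p = 0.55). Over all 21495 probes, every TCDD array was below every DMSO array for 1160 on day 5 and 916 on day 3.

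The called ATPases were only slightly higher in TCDD than in DMSO embryos on day 5. Psmc2, with -0.63, -0.80, -0.46 and -0.60 in TCDD embryos and -0.94, -0.94, -0.79 and -0.88 in DMSO embryos on day 5, was higher in 4 of 4 experiments by 0.27 ± 0.07 (SE, adjusted p = 0.025), or 1.20-fold. Its array of experiment 2 fell just inside the DMSO range. On days 1 to 4 the log2 fold changes of psmc2 were 0.17, 0.27, 0.25 and 0.16, all positive and none called (adjusted p = 1, 0.14, 0.071 and 0.56). Psmc6, with -1.22, -1.61, -1.32 and -1.28 in TCDD and -1.65, -1.58, -1.67 and -1.68 in DMSO embryos on day 5, was higher in 3 of 4 experiments by 0.29 ± 0.09 (adjusted p = 0.031). On days 1 to 4 it differed by no more than 0.06.

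The beta subunit psmb1 stood at -1.47, -1.69, -1.39 and -1.33 in TCDD embryos on day 5 and at -1.79, -1.72, -1.69 and -1.70 in DMSO embryos. Its groups touched without overlapping, and the log2 fold change was 0.26 ± 0.08 (adjusted p = 0.038). Psmd12 showed a like pattern, with -0.49, -0.66, -0.24 and -0.39 in TCDD and -0.82, -0.77, -0.67 and -0.78 in DMSO embryos. Its groups did not overlap, but its 0.31 ± 0.10 was not called (adjusted p = 0.063) except under alternatives such as the block. All TCDD arrays lay above all DMSO arrays for 5.53% of all probes on day 5. Psmc3 (0.26, adjusted p = 0.071) and psmd7 (0.25, adjusted p = 0.12) were also called with the block and not without it, and psma6a (0.24, adjusted p = 0.14) with neither.

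**Figure D5:**
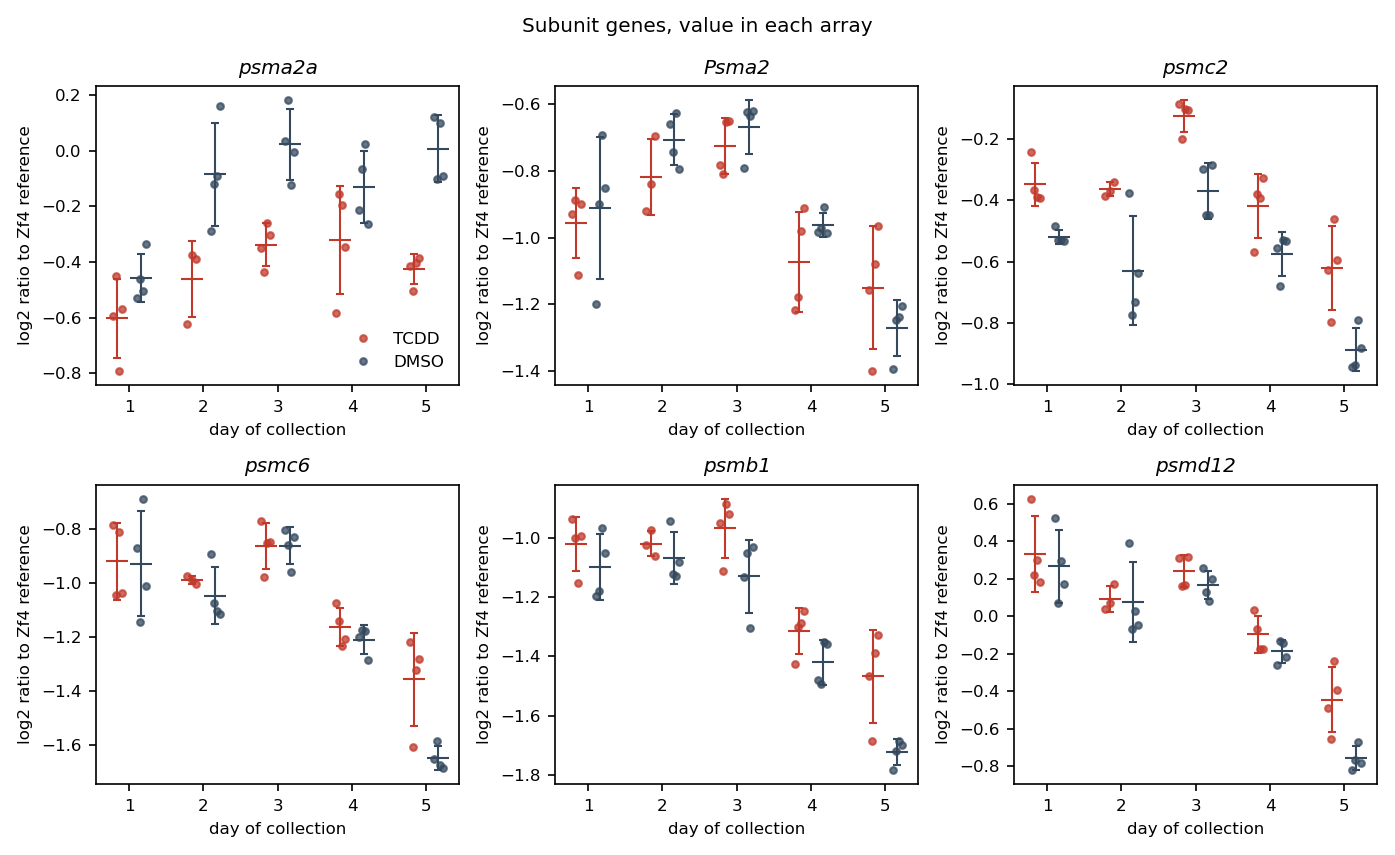
Log2 level against the Zf4 reference of psma2a, Psma2, psmc2, psmc6, psmb1 and psmd12 by day; points are arrays and bars the mean ± SD of TCDD (red, left) and DMSO (dark, right). On day 5 TCDD lies below DMSO for psma2a (means -0.43 and 0.01) and above it for psmc2 (-0.62 and -0.89), psmc6, psmb1 and psmd12.

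Experiment 2 had the lowest TCDD array on day 5 for most members. It was the lowest of the 4 TCDD arrays for 22 of the 32 genes (68.8%, against 25.1% of all probes) and for 5 of the 5 called ones. The DMSO array of the same experiment was the lowest of its group for 5 of the 32 genes (15.6%, against 28.5% of all probes). Without experiment 2 the limma fit called 8 members on day 5, and without experiments 1, 3 and 4 it called 1, 0 and 1. The shares of all probes called were 5.2% without experiment 2 and 3.26%, 3.45% and 2.14% without experiments 1, 3 and 4. In the 2 scan batches that held both treatments on day 5 the difference for psme1 was 0.49 and 0.78, for psma2a -0.50 and -0.30, for psmc2 0.18 and 0.35, for psmc6 0.22 and 0.38 and for psmb1 0.16 and 0.34. The signs were thus the same in both batches, each with 2 TCDD arrays and 3 or 1 DMSO arrays.

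Psmb1-like was the member called on day 2. It stood at 0.86, 0.69 and 0.59 in TCDD embryos and at -0.51, -0.15, -0.44 and 0.15 in DMSO embryos. All TCDD arrays were above all DMSO arrays, as for 1135 of the 21495 probes on that day. The log2 fold change of psmb1-like was 0.95 ± 0.22 (SE, adjusted p = 0.034, limma). On day 1 its difference ran the other way (-0.63, adjusted p = 1), and on days 3, 4 and 5 it lay between -0.02 and 0.06. The probe was dim and below background on 1 array. Its day 2 call was lost whichever of the 4 experiments was left out, and the difference was 0.35 after normexp and loess and 1.28 in the embryo channel alone.

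None of the inducible beta subunits was called. Psmb8, which replaces psmb5 in the inducible core, stood at -4.30, -4.40, -2.54 and -3.84 in TCDD embryos on day 5 and at -3.22, -3.88, -3.41 and -4.36 in DMSO embryos. Its embryo signal was above background on 0 of 4 TCDD arrays and 2 of 4 DMSO arrays of that day, so the difference between the ratios (-0.05 ± 0.33, SE) is mostly one between signals that were not measured above background. Psmb9a, which replaces psmb6, differed by 0.27 ± 0.48 and was above background in embryos on a single array, so its level is only an upper bound on most. The probe named psmb10 (psmb13a in RefSeq) averaged -3.30 ± 0.43 in TCDD and -3.45 ± 0.32 in DMSO embryos on day 5 (SD, n = 4 each). The probes named psmb11 (psmb12 in RefSeq) and psmb12-like differed by -0.01 ± 0.17 and 0.16 ± 0.20 (SE). In the limma fit none of the 5 was called for TCDD on any day, with 1 lower on day 2 at an unadjusted p of 0.05 and 0 on each other day. In the gene order of RefSeq assembly GRCz12tu, psmb13a, psmb8a, psmb12, psmb9a and the peptide transporter gene tap2a follow each other without another protein-coding gene between them.

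Where a gene had several bright probes, these mostly moved together. Both psmc2 probes were called on day 5 (0.27 and 0.26), as were 2 of the 3 psmc6 probes (0.29 and 0.29), and the third psmc6 probe showed 0.43 (adjusted p = 0.065). The 2 psmb6 probes showed 0.14 and -0.02 on day 5, neither called, and both fell over development in DMSO embryos (-0.76 and -0.61). The 3 psmb1 probes gave 0.26, 0.19 and 0.21, of which the first was called. For psmd11 the brighter probe showed 0.20 (adjusted p = 0.27) and the second 0.50 (adjusted p = 0.039). Dim second probes of psmc1 and psmd8-like had the other sign, at -0.49 and -0.21, and were not called.

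The 24 proteasome genes under other names gave a similar count on day 5. Of them 20.8% were called higher and 0% lower, beside 3.64% and 2.63% of all probes. The 5 that were called were all higher in TCDD embryos: the alpha subunit gene psma8 (0.51, adjusted p = 0.0044), the ATPases psmc1b (0.40, adjusted p = 8.20e-04) and psmc4 (0.33, adjusted p = 0.00124), the ubiquitin receptor adrm1 (0.36, adjusted p = 0.012) and psmd1, the large scaffold subunit of the base (0.35, adjusted p = 0.044). Of their 9 regulatory genes, 8 had a positive log2 fold change and 4 were called, with a median of 0.24. The DMSO group of psmd1 on day 5 held 3 arrays, since an outlier spot was left out. No gene under another name was called on days 1 to 4 (limma). There 0, 2, 6 and 3 were higher and 0 lower at an unadjusted p of 0.05, a threshold without a share of all probes here. At an unadjusted p of 0.01 (limma), 0, 2, 2 and 2 were higher and 0 lower. Over all probes 19, 319, 735 and 348 were higher at 0.01, and 135, 390, 666 and 378 lower.

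Psmc1b is the second zebrafish copy of psmc1. On day 5 it stood at -1.58, -1.73, -1.54 and -1.62 in TCDD embryos and at -2.03, -2.02, -1.92 and -2.12 in DMSO embryos, without overlap. Psma8, whose mammalian counterpart is an alpha subunit of the testis, stood at -1.44, -1.61, -1.57 and -1.74 in TCDD embryos and at -2.13, -2.07, -2.03 and -2.19 in DMSO embryos. These groups did not overlap either. For 5.53% of all probes, all TCDD arrays were above all DMSO arrays on day 5. A probe that RefSeq assigns to psmb10, the inducible counterpart of psmb7, was 0.58 higher in TCDD embryos on day 5 without being called (adjusted p = 0.15).

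Between day 1 and day 5, 18 of the 24 fell and 2 rose in DMSO embryos (75% and 8.33%). Of all probes 25.5% fell and 21.3% rose. The fall was largest for psma8 (-1.08), and psmc4 (-0.73), psmd8 (-0.73), psmd1 (-0.68) and the assembly chaperone psmg1 (-0.69) followed. The exceptions that rose were psmf1 (0.43), a proteasome inhibitor, and psmg3 (0.39), an assembly chaperone. The maturation factor pomp fell by 0.47.

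Genes that act on the proteasome were given as 4 lists. Of the transcriptional regulators, 4 of 9 listed genes were measured. The oxidative stress factor nfe2l2 was lower with TCDD on day 3, at -0.33, 0.12, 0.07 and 0.50 in TCDD embryos and 1.25, 0.86, 0.74 and 0.76 in DMSO embryos (-0.81 ± 0.16, SE, adjusted p = 0.0026). Over all probes 2.75% were called on day 3 in either direction. At an unadjusted p of 0.05 (limma), 3 of the 4 regulators were lower on day 3, a threshold without a share of all probes here. The median of the 4 on that day was -0.54. Nfe2l2 was not called on day 5 (-0.46, adjusted p = 0.094). Over development in DMSO embryos nfe2l2 rose by 0.80, and ddi2, the protease that activates nfe2l1 in mammals, fell by 1.09. With TCDD ddi2 differed by 0.07 on day 5.

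Of the genes for ubiquitin supply and the VCP segregase, 6 of 11 were measured and none was called for TCDD on any day (limma; 1 lower at an unadjusted p of 0.05, on day 3). Between day 1 and day 5 in DMSO embryos 2 rose and 2 fell, and those that fell were vcp (-0.46) and the ubiquitin-activating enzyme uba1 (-0.36). Of the factors bound to the proteasome 10 of 19 were measured. Of these 7 fell and 1 rose over development, and 1, adrm1, was called for TCDD on day 5. It is the same adrm1 probe that was counted among the genes under other names. Of all probes 25.5% fell and 21.3% rose in DMSO embryos, and 6.27% were called for TCDD on day 5.

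Of the antigen processing genes, 5 of 11 were measured. The interferon-regulated factor irf1 stood at -1.14, -2.47, -1.31 and -0.64 in TCDD embryos on day 5 and at -2.51, -2.85, -2.60 and -2.69 in DMSO embryos. Its log2 fold change was 1.27 ± 0.26 (SE, adjusted p = 0.0017, limma). All its TCDD arrays were above all its DMSO arrays, as for 5.53% of all probes on that day. The experiment 2 array of irf1 was the lowest of the TCDD arrays, as for 22 of the 32 members and 25.1% of all probes. The MHC class I light chain b2m was -0.43 on day 5 without being called (adjusted p = 0.28). It stood at -5.67, -5.75, -7.04 and -5.26 in TCDD embryos and at -5.59, -5.58, -5.37 and -5.47 in DMSO embryos. The TCDD array of experiment 3 thus lay far below the others. In DMSO embryos irf1 rose by 1.35 and b2m by 1.12 between day 1 and day 5.

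Of 10 listed leukocyte markers 8 were measured, and 2 (25%, beside 3.64% of all probes) were called higher in TCDD embryos on day 5. These were the actin-bundling protein gene lcp1 (0.74, adjusted p = 0.0025) and mpx, which encodes the peroxidase of neutrophils. The embryo signal of mpx was above background on 4 of 4 TCDD arrays and 0 of 4 DMSO arrays. It was thus at least 4.32-fold higher in TCDD embryos. This bound itself was not tested, and the limma fit of the ratios gave an adjusted p of 1.05e-04. The other 6 markers, coro1a among them (0.33, adjusted p = 0.57), lay between -0.30 and 0.67 and were not called. Without mpx the mean log2 ratio over the list ranged from 2.36 to 2.78 in TCDD embryos and from 2.22 to 2.47 in DMSO embryos on day 5. Of the proliferation markers, mcm3 (-0.53) and mcm4 (-0.44) were lower in TCDD embryos on that day (33.3%, beside 2.63% of all probes). Of the other tissue markers 1 of 3 liver genes, the fibrinogen gene fgb, was higher in TCDD embryos on day 5 (0.66, adjusted p = 0.00597). None was called among 4 blood, 3 fast muscle, 3 lens, 4 skin and 4 neuron genes (limma, where 1 neuron gene was lower at an unadjusted p of 0.05). Between days 1 and 5 in DMSO embryos 3 of 3 lens, 2 of 3 fast muscle and 3 of 4 skin genes rose. So did 1 of 4 neuron and 1 of 3 liver genes, beside 21.3% of all probes. The part of these lists in the proteasome differences was not tested.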

How the data were processed

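The authors deposited the output of Agilent Feature Extraction 8.1.1 for 39 two-colour arrays and a table of the series. The deposited log10 ratio (red embryo channel over green Zf4 channel, which the software had corrected for background and dye bias) was turned into log2. Series table and scanner ratios were identical in all 880425 values. The deposited intensity columns gave embryo-channel levels, and the deposited flag columns gave background, saturation and outlier calls. Spots marked as outliers were left out. No columns of the authors' own comparisons were used.

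All 10 group means were fitted with limma 3.58.1 in R 4.3.3 (lmFit, eBayes), p-values were adjusted by Benjamini-Hochberg over all probes, and an adjusted p under 0.05 was a call. A gene was its probe with the highest mean log2 signal, and other probes are given for some genes. Each test compares at most 4 arrays with 4 (3 for TCDD on day 2), and their number limits the precision. Where outlier spots were left out, a test had fewer arrays. Psmd2, counted among the genes under other names, kept 1 DMSO array on day 1 and 2 on day 5. On simulated data for TCDD against DMSO on day 5, 100 of 20606 probes were changed by 0.3 and 100 by 1 (log2). Of these 7% and 58% were recovered, and 5 unchanged probes were called. In the data 1348 probes were called on day 5, so these shares do not give the recovery for the members.

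The same replicate number marks arrays of 1 independent experiment, per the study's methods. Arrays of 1 number on 1 day deviated together with a median correlation of 0.23 (range -0.14 to 0.40, n = 19 pairs with a shared number), against -0.07 for different numbers (n = 57). The experiment was therefore tried as a block. Scan batches held 4, 24 and 11 arrays. Arrays of a group correlated at 0.87 to 0.97 and none were identical.

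Members and lists were chosen with earlier results of these data known. Named were members called for TCDD on any day, the 5 largest rises and falls of day 5 against day 1 in DMSO embryos, the smallest p in each class, the catalytic and inducible beta subunits, dim members and called genes of the pathway lists. Names not covered by this rule, such as psma4, psmd7, psmc1, Psma2 and those under other names, were chosen after their values were seen. Alternatives were the blocks, each batch alone, normexp (offset 50) with loess, array medians removed, the embryo channel alone, dim probes left out, outliers kept, array weights, no moderation, each day alone, an unadjusted p of 0.01 (the methods' threshold), the mean over probes and each experiment left out. Restricting members to those above background on all arrays was chosen after seeing the data. Promoter, protein and probe sequences were not used here. Some results of the antigen processing list are not reported here.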

Additional observations from a re-analysis of the deposited data

Results flagged for a closer look

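In 7 of 117 groups of 4 arrays (genes named in the text), 1 array lay far from the other 3. Chance alone gives such a gap in about 1 in 20 groups. For psmc2, DMSO replicate 1 stood at -0.485 on day 1 while the others lay between -0.532 and -0.53, and DMSO replicate 2 stood at -0.681 on day 4, against -0.555 to -0.53. For psme2 on day 1, TCDD replicate 4 stood at -2.654 (others -2.394 to -2.34) and DMSO replicate 1 at -2.807 (others -2.36 to -2.329). For psmc3ip-like, DMSO replicate 1 stood at -0.404 on day 2 (others -0.221 to -0.189). For the dim psma3-like, DMSO replicate 3 stood at 0.07 on day 4 and at 0.224 on day 5, where the other ratios were stored as 0.

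The TCDD effect on psme1 was called as different between day 5 and day 1. A joint test over all days did not call psme1 (limma F, adjusted p = 0.337). In 6 of 18 other settings the call between day 5 and day 1 was lost. The effect on day 5 minus that on day 1 was 1.111 on the log2 scale (limma, adjusted p = 0.0383 over all probes), with lower TCDD arrays on day 1 and higher ones on day 5.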

How the results depend on the processing

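Main counts of members called for TCDD against DMSO were 0, 1, 1, 0 and 5 on days 1 to 5. With the replicate block the counts were 0, 2, 2, 0 and 9, where psmc3, psmd12, psmd7 and psme2 were added on day 5. This block called 8.67% of all probes on day 5, against 6.27% in the main fit. With the scan batch block the counts of members were 2 on days 2 and 3. Batch 2 alone, batch 3 alone, the embryo channel alone and each day fitted alone gave 0 on days 2, 3 and 5, and over all probes on day 5 they called 0.917%, 0%, 5.23% and 0.00931%. Batch 3 alone has 11 arrays for 10 groups, and batch 1 could give no test. Removing array medians gave 8 on day 5, beside 6.5% of all probes. Array weights gave 3 on day 2 and 2 on day 3, and no moderation gave 2 on day 3. The unadjusted p of 0.01 gave 1, 3 and 2 on days 1, 2 and 3. Leaving out 1 experiment gave 0 to 1 on day 2, 0 on day 3 and 0 to 8 on day 5, beside 2.14% to 5.2% of all probes on day 5. For the blocks, array weights, no moderation and left-out experiments, the shares of all probes on days 2 and 3 are not given. Those counts have no background beside them. Members above background on all arrays, chosen after seeing the data, gave 0 on day 2, since psmb1-like was left out.

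Between day 1 and day 5, batch 3 alone called 0 members higher and 0 lower in either treatment and 0 for the main effect of day. The embryo channel alone called 2 higher in DMSO embryos, against 4. For day and treatment together, the block and array weights gave 1 each and the unadjusted p of 0.01 gave 2, against 0. Genes under other names on day 5 numbered 5, with 1 in batch 2 alone, 0 in batch 3 alone and each day alone, 2 in the embryo channel and 2 to 7 without 1 experiment. Without 1 experiment, 2.14% to 5.2% of all probes were called on day 5. Single genes were followed only for members called for TCDD and those with the largest changes over development. None of their called changes turned its direction in these settings, and 68 of 311 gene values lost the call. The cause of these differences was not tested. The regulatory median on day 5 ranged from 0.11 to 0.39. Signal over background limits psma3-like, psmb8, psmb9a, psmb1-like and psmd10-like.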
